A study of Mus musculus with 6 samples.

Results

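The protein arginine methyltransferase family was followed by its 7 listed genes, Prmt1, Prmt2, Prmt3, Carm1, Prmt5, Prmt6 and Prmt7, out of 36065 genes in the deposited table. The members were chosen by name and matched to the table by Ensembl identifier. Mouse wild-type 1-cell embryos had been kept in culture with 1 of 3 additions, and each group had 2 libraries labelled as biological replicates. CBR+SAM embryos received CBR-5884, an inhibitor of serine metabolism, together with S-adenosylmethionine (SAM). CBR embryos received CBR-5884 alone, and DMSO embryos received the solvent alone. All 3 groups shared the wild-type genotype and the in vitro culture, and there was no group given SAM without the inhibitor. The labels give neither the doses, the culture time nor the number of embryos in each library.

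Protein arginine methyltransferases move the methyl group of SAM onto arginine side chains of histones, RNA-binding proteins and spliceosome proteins. Type I enzymes (Prmt1, Prmt2, Prmt3, Carm1 and Prmt6) make asymmetric dimethylarginine, the type II enzyme Prmt5 makes symmetric dimethylarginine, and the type III enzyme Prmt7 makes monomethylarginine. Serine supplies carbon to the folate and methionine cycles that make SAM, which links the inhibitor to the substrate of these enzymes. In a 1-cell embryo most mRNA was made by the oocyte, so a transcript level here is not a rate of new synthesis.

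Values are the authors' deposited abundance signal, a scale per transcript length on which levels of different genes can be compared. The 6 libraries summed to between 956209 and 1059424. Oocyte and zygote genes dominated, with Dppa3 between 13565 and 17885, while the 5 blood cell markers stayed under 1 in every library. The summed blood cell markers were nonetheless highest in CBR+SAM replicate 2, at 0.701, mostly from Ptprc at 0.495, and at most 0.0849 in the other libraries. Of 10 cumulus cell markers 8 also stayed under 1 in every library. The summed cumulus markers were 616 and 237 in CBR+SAM embryos, 580.1 and 580.0 in CBR embryos, and 533 and 509 in DMSO embryos. Serpine2 made up most of these sums, with 602 and 224.5 in CBR+SAM embryos, 567 and 568 in CBR embryos, and 524 and 496 in DMSO embryos. Cyp19a1, the only other cumulus marker to reach 1, gave 13.6 and 11.9 in CBR+SAM embryos, 12.8 and 11.8 in CBR embryos, and 8.14 and 12.3 in DMSO embryos. CBR+SAM replicate 2 was therefore low in Serpine2 and not in Cyp19a1. The markers under 1 did not share a direction, as Fshr was highest there, at 0.324, and Tnfaip6 lowest, at 0.0523. Sperm and oviduct markers were not all low. Of 6 sperm markers 3 stayed under 1 in every library, but Prm2 lay between 9.86 and 14.7. Of 5 oviduct markers 3 stayed under 1 in every library. The oviduct markers Ovgp1 and Epcam were above 1 in every library, reaching 2.06 and 2.10. The source of these transcripts was not tested. Fitted changes of the members that rest on CBR+SAM replicate 2 are given with and without it. The libraries are of bulk RNA, in which a difference in cell number and one in RNA per cell cannot be told apart.

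The 7 genes lie on 6 autosomes, each at its own locus, and Prmt1 and Prmt3 share chromosome 7. The promoters of the most and the least abundant member are printed here because their levels lay furthest apart, as described next. Both are the 250 bases before the RefSeq gene start in GRCm38.p6 (mm10), on the minus strand, chr10:76237866-76238115 for Prmt2 and chr3:110251000-110251249 for Prmt6, with each CG pair in capitals.
Prmt2: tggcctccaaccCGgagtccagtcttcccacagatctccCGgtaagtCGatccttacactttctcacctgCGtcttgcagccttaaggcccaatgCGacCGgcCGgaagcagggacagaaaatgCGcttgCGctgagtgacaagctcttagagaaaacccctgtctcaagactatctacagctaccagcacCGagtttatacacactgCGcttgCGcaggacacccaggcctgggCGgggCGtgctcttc
Prmt6: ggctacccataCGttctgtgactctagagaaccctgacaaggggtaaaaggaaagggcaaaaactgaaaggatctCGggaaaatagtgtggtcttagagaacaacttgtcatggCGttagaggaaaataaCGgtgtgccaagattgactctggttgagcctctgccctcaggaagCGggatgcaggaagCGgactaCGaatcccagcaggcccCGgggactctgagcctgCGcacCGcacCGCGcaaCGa
Prmt2 had 14 CG pairs and Prmt6 had 13 in these windows. A CG pair reads the same on both strands, and 92.1% of the 32851 RefSeq promoter windows of the same length held at least 1, with a median of 6. Windows were matched for 6 of the 7 members. Prmt1 and Prmt5 had 13 pairs, Prmt3 had 17 and Prmt7 had 35, so all 6 lay above the median, and the count did not follow the order of the levels.

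Transcripts of the family were carried mainly by a single member. Prmt2, an enzyme of low catalytic activity that also acts as a transcriptional coactivator, gave 38.2 and 26.8 in CBR+SAM embryos, 38.8 and 43.0 in CBR embryos, and 35.6 and 37.0 in DMSO embryos. Its share of the summed signal of the 7 genes was 66.7% and 57.8% in CBR+SAM embryos, 66.5% and 64.1% in CBR embryos, and 67.1% and 62.4% in DMSO embryos. Averaged over the 6 libraries, its signal of 36.6 exceeded that of 86.7% of protein-coding genes.

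Prmt3, a cytosolic enzyme with a zinc finger that methylates ribosomal protein S2, came next. It gave 9.03 and 11.8 in CBR+SAM embryos, 10.1 and 9.29 in CBR embryos, and 8.94 and 11.1 in DMSO embryos. Its lowest library lay above the highest library of every lower member, and below the lowest library of Prmt2.

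Prmt5, the main enzyme of symmetric dimethylation, gave 3.41 and 3.78 in CBR+SAM embryos, 4.31 and 5.58 in CBR embryos, and 2.76 and 3.35 in DMSO embryos. Prmt1, which makes most asymmetric dimethylarginine in mammalian cells, gave 4.11 and 1.76 in CBR+SAM embryos, 2.92 and 5.86 in CBR embryos, and 3.31 and 5.12 in DMSO embryos. The ranges of these genes overlapped, and Prmt5 was the higher of them in 2 of 6 libraries although its mean over the 6 libraries, 3.86 against 3.85, was slightly above that of Prmt1. Prmt7 gave 1.43 and 1.26 in CBR+SAM embryos, 1.33 and 2.41 in CBR embryos, and 1.42 and 2.17 in DMSO embryos. Its range overlapped that of Prmt1, but it lay below Prmt1 in all 6 libraries.

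Carm1 is a coactivator that methylates histone H3 and is known in mouse embryos for its part in early lineage bias. Its signal fell just short of the filter for testing, at least 1 in at least 2 libraries. It gave 0.983 and 0.635 in CBR+SAM embryos, 0.737 and 0.951 in CBR embryos, and 1.01 and 0.513 in DMSO embryos. From the steps between the lowest values these levels correspond to at most about 36 to 87 reads per library. The longest Carm1 transcript shares 786 bases with Yipf2 on the opposite strand, and the library kit does not mark strand, so the origin of part of its reads is uncertain.

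Prmt6, a nuclear enzyme that methylates histone H3, was listed at 0.0849 and 0.322 in CBR+SAM embryos, at 0.126 and 0.0270 in CBR embryos, and at 0.0172 and 0 in DMSO embryos. These values correspond to at most about 6 and 23 reads in CBR+SAM embryos, 8 and 2 in CBR embryos, and 1 and 0 in DMSO embryos. They were too low to be tested, and no fold change is given. A stretch of 984 bases is shared with the antisense gene C130013H08Rik, which has no record in the table, so the reads cannot be assigned with certainty. Prmt7 shares a shorter stretch, 247 bases, with Smpd3, whose own signal stayed at or below 0.278. No other gene shared a stretch of at least 100 bases at 98% identity with the longest transcript of Prmt1, Prmt2, Prmt3 or Prmt5. Their other transcripts were not searched.

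**Figure D1:**
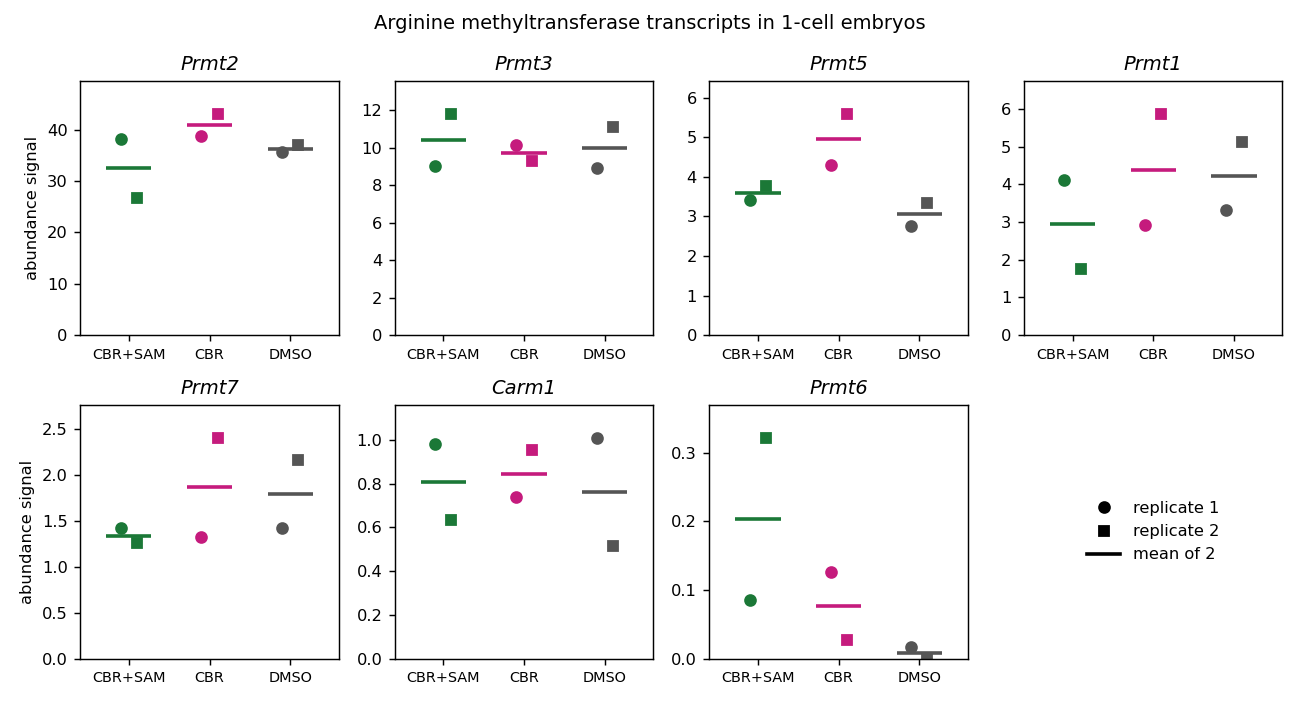
Abundance signal (vertical axis, from 0, a separate scale per gene) of the 7 genes in CBR+SAM, CBR and DMSO embryos, with circles for replicate 1, squares for replicate 2 and bars for the mean of both. Prmt2 reaches 43.0 whereas Prmt6 does not pass 0.322, and for Prmt1 the replicates of each group lie further apart than the group means.

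The comparison of CBR with DMSO embryos asked whether blocking serine metabolism alters these transcripts. Prmt5 averaged 4.95 ± 0.903 in CBR embryos and 3.05 ± 0.418 in DMSO embryos (SD, n = 2 each), and both CBR libraries lay above both DMSO libraries. Prmt2 averaged 40.9 ± 2.99 in CBR embryos and 36.3 ± 0.960 in DMSO embryos, also without overlap. For Prmt1, Prmt3 and Prmt7 the groups overlapped. None of the 5 members high enough to test passed the adjusted threshold of 0.05, and neither did any other gene (percent called 0 of the 12249 genes tested by limma).

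Prmt5 had a log2 change of 0.55 (SE 0.21, 95% interval 0.06 to 1.03), and its adjusted p was 1 (limma, Benjamini-Hochberg). Unadjusted p-values under 0.05 were found for 260 genes, 2.12% of those tested, and for Prmt5 alone among the 5 members. Without CBR replicate 2 the change of Prmt5 was 0.39, and without CBR replicate 1 it was 0.70. It stayed positive with any CBR or DMSO library left out, which follows from the lack of overlap between these groups. Leaving out a CBR+SAM library cannot alter this estimate, but it can alter the spread that the groups share. With only the 4 libraries compared, 534 of 11853 genes tested had an unadjusted p under 0.05 by limma, and no member passed. The change of Prmt2, given next, was 0.09 without CBR replicate 2.

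Prmt2 had a log2 change of 0.17 (95% interval -0.30 to 0.63), Prmt3 one of -0.03 (-0.51 to 0.44), Prmt7 one of 0.02 (-0.60 to 0.65) and Prmt1 one of 0.01 (-0.90 to 0.93). Scaling every library to the same sum gave -0.02 for Prmt1 and -0.0041 for Prmt7, so neither has a settled direction. The intervals of Prmt1, Prmt2, Prmt3 and Prmt7 exclude a log2 change of 1 in either direction on the scale of signal + 1, which understates changes of low genes. Groups without overlap were found for 2 of the 5 members tested, against 33.0% of all genes tested. The median change of the 5 members was 0.02, against -0.007 over all genes tested.

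**Figure D2:**
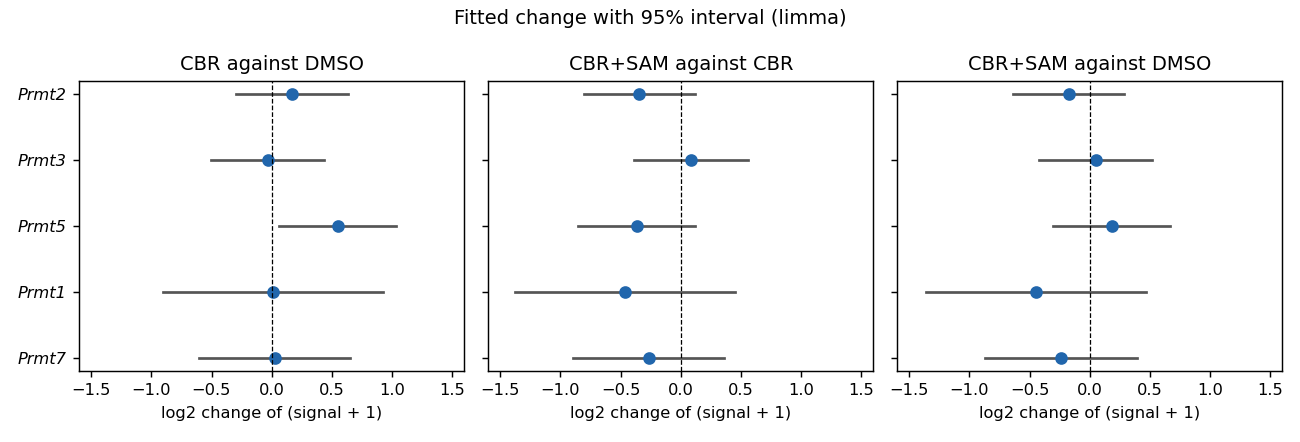
Fitted log2 change of signal + 1 (horizontal axis) for the 5 tested genes in each comparison, with points for the estimate and lines for its 95% interval from limma. The interval of Prmt5 in CBR against DMSO embryos runs from 0.06 to 1.03, and every other interval spans 0.

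The comparison of CBR+SAM with CBR embryos asked what the methyl donor does to the same transcripts in inhibited embryos. Prmt5 averaged 3.59 ± 0.261 in CBR+SAM embryos and 4.95 ± 0.903 in CBR embryos (SD, n = 2 each), and Prmt2 averaged 32.5 ± 8.11 in CBR+SAM embryos and 40.9 ± 2.99 in CBR embryos. In both genes the CBR+SAM libraries lay below the CBR libraries. The groups did not overlap in 27.5% of all genes tested, with CBR+SAM above in 15.0% and below in 12.5%. Prmt1 averaged 2.94 ± 1.66 in CBR+SAM embryos and 4.39 ± 2.08 in CBR embryos, with overlap. None of the 5 members passed, where 0.00816% of all genes were called. No member had an unadjusted p under 0.05 by limma, against 3.09% of all genes.

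The log2 changes were -0.37 for Prmt5 (SE 0.21, 95% interval -0.85 to 0.12), -0.34 for Prmt2 (SE 0.20, -0.81 to 0.12) and -0.46 for Prmt1 (SE 0.39, -1.38 to 0.45). Each had an adjusted p of 0.988 by limma. Prmt7 had -0.27 (-0.89 to 0.36) and Prmt3 0.08 (-0.39 to 0.55). All 3 values depended on single libraries. Prmt2 ran from -0.59 without CBR+SAM replicate 1 to -0.09 without CBR+SAM replicate 2. Prmt1 was -0.02 without CBR+SAM replicate 2 and -0.06 without CBR replicate 2, but -0.91 without CBR+SAM replicate 1 and -0.87 without CBR replicate 1. Prmt5 ran from -0.52 without CBR replicate 1 to -0.21 without CBR replicate 2, and was -0.42 without CBR+SAM replicate 2. With that last library left out Prmt7 had -0.21 and Prmt3 -0.09. Serpine2, given above, was also lowest in CBR+SAM replicate 2, but Cyp19a1 was not. A link of these markers with the changes was not tested. The CBR libraries served in this comparison and in that of CBR with DMSO, so the opposite signs of Prmt5 in them are not independent of each other.

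CBR+SAM and DMSO embryos were compared to see how far the libraries with SAM stood from the solvent control. Prmt5 averaged 3.59 ± 0.261 in CBR+SAM embryos and 3.05 ± 0.418 in DMSO embryos (SD, n = 2 each). Its log2 change was 0.18 (95% interval -0.30 to 0.67), and this was the only member whose libraries did not overlap, against 24.5% of all genes tested. The gap was narrow, 3.41 in CBR+SAM replicate 1 against 3.35 in DMSO replicate 2. These libraries summed to 998179 and 956209, so the lack of overlap depends on the scaling. With every library scaled to the same sum the change was 0.118. Without DMSO replicate 1 the change of Prmt5 was 0.08, without DMSO replicate 2 it was 0.29, and without CBR+SAM replicate 2 it was 0.12. Prmt2 had a change of -0.18 (-0.64 to 0.29), which became 0.07 without CBR+SAM replicate 2. Prmt1 had -0.45 (-1.36 to 0.46), which became -0.0071 without that library and -0.89 without CBR+SAM replicate 1. With DMSO replicate 1 left out Prmt1 had -0.70, and with DMSO replicate 2 left out -0.20. Prmt7 had -0.24 (-0.87 to 0.39) and Prmt3 had 0.05 (-0.43 to 0.52), the last with a different sign when every library was scaled to the same sum, -0.03. The change of Prmt7 was -0.0476 without DMSO replicate 2 and -0.435 without DMSO replicate 1. With CBR+SAM replicate 2 left out Prmt7 had -0.19 and Prmt3 -0.13. No member passed, with adjusted p-values of 1 by limma and 0.00816% of all genes called.

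**Figure D3:**
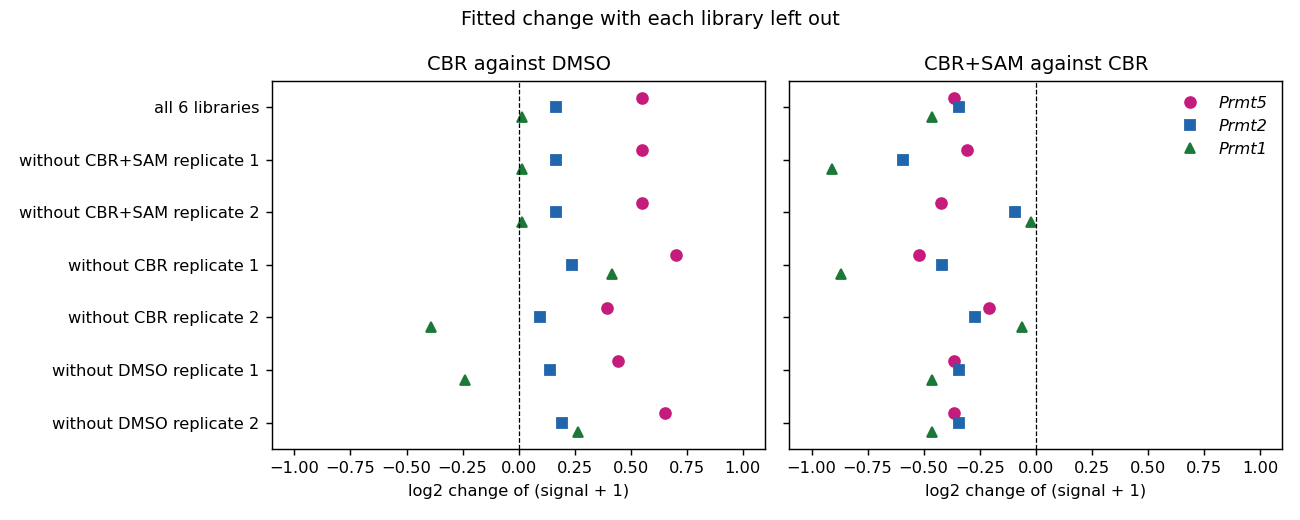
Fitted log2 change of signal + 1 (horizontal axis) of Prmt5, Prmt2 and Prmt1 with all 6 libraries and with each library left out in turn (rows), for CBR against DMSO embryos on the left and CBR+SAM against CBR embryos on the right. Prmt5 stays between 0.39 and 0.70 on the left, while Prmt1 runs from -0.39 to 0.42 there.

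Replicates of the same group differed unevenly among the members. For Prmt1 the log2 difference of replicate 2 from replicate 1 was -0.89 in CBR+SAM, 0.81 in CBR and 0.50 in DMSO embryos. These differences were larger in size than those of 92.4%, 94.4% and 84.0% of the 3490 genes tested whose mean signal was within a factor of 2 of that of Prmt1. Prmt7 followed with 0.55 in CBR embryos and 0.39 in DMSO embryos, but had -0.11 in CBR+SAM embryos. Prmt5 had 0.12 in CBR+SAM, 0.31 in CBR and 0.21 in DMSO embryos, where the median absolute difference of genes at its level was 0.30, 0.23 and 0.21.

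For each member the genes with the most similar profile over the 6 libraries were sought among protein-coding genes with a mean within a factor of 2, leaving out predicted genes known only by a clone or model name. Likeness was the root-mean-square difference of log2(signal + 1) values centred on each gene's mean, so a small number means a close match. Closest to Prmt5 was Mettl2, at 0.047 among 2930 candidates, and Fdps was also among the 3 closest, at 0.103. Mettl2 gave 4.59 and 5.17 in CBR+SAM embryos, 6.26 and 7.49 in CBR embryos, and 3.85 and 4.33 in DMSO embryos. Prmt2 was closest to Rnf113a2 (0.0288), Rnf219 and Me2, Prmt3 to Dera (0.0249), Ankrd6 and Npm3, and Prmt1 to Uros (0.123), Mpp1 and Tfip11. Prmt7 was closest to Mlec (0.0604), Nek11 and Arhgef28, Carm1 to Fbxo48 (0.057), Ccdc43 and Kif27, and Prmt6, at its very low values, to Mup19 (0.0298), Klhl30 and F3. With so many candidates and 6 libraries these matches are descriptions only.

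Genes that work with the family were taken from 6 lists of 37 genes in all, of which 31 were high enough to test. Partners of Prmt5 stood at very unlike levels. Wdr77, the usual subunit of the active Prmt5 complex, was listed at 0.156 and 0.139 in CBR+SAM embryos, 0.112 and 0.0961 in CBR embryos, and 0.0975 and 0 in DMSO embryos, which corresponds to at most about 16 reads in any library. It shares 870 bases with Gm42890, which has no record in the table, and 148 bases with Atp5f1. The adaptors that bring substrates to Prmt5 were far higher. Clns1a, the adaptor for Sm proteins of the spliceosome, lay between 55.3 and 69.2, and Coprs, which directs the complex to histones, between 63.1 and 79.8.

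Riok1, a kinase that competes with Clns1a for Prmt5, gave 799.6 and 504 in CBR+SAM embryos, 751 and 837 in CBR embryos, and 714 and 740 in DMSO embryos. On the per-length scale Riok1 exceeded Prmt5 235 and 133 times in CBR+SAM embryos, 174 and 150 times in CBR embryos, and 259 and 221 times in DMSO embryos. Both CBR ratios lay below both DMSO ratios. Prmt5, the divisor, was higher in both CBR libraries, so this order is not a result separate from the Prmt5 values. Riok1 itself had a log2 change of 0.12 between CBR and DMSO embryos (95% interval -0.40 to 0.65).

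Among the arginine methyltransferases outside the 7, Prmt8, known from brain, was listed at 0 in every library. Prmt9, another symmetric enzyme, lay between 0.482 and 1.07, and the mitochondrial enzyme gene Ndufaf7 between 15.7 and 21.9. Mettl23, known to methylate histone H3 arginine in mouse oocytes and zygotes, gave 8.10 and 7.21 in CBR+SAM embryos, 7.29 and 5.31 in CBR embryos, and 7.92 and 4.65 in DMSO embryos. Its transcripts share 460 bases with Srsf2, whose signal was above 31, so its level is uncertain. Of the deiminases, which convert arginine to citrulline, Padi6 of the oocyte lay between 96.5 and 143.7, while Padi1, Padi3 and Padi4 stayed at or below 0.438. Jmjd6, reported as an arginine demethylase, lay between 41.7 and 53.2.

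Readers and substrates covered a similar span. The Tudor domain gene Smn1, whose protein binds methylated Sm proteins, lay between 245 and 318, and the Sm protein genes Snrpd1 and Snrpd3 between 841 and 1266 and between 524 and 781. The third Sm gene, Snrpb, lay between 1.94 and 3.34. For SAM itself, the synthetase gene Mat2a lay between 29.8 and 47.2 and its regulatory subunit Mat2b between 1287 and 1684. Ahcy, which removes the product S-adenosylhomocysteine, stayed at or below 0.631, but a near-identical copy, Gm4737, took between 0.966 and 2.32.

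**Figure D4:**
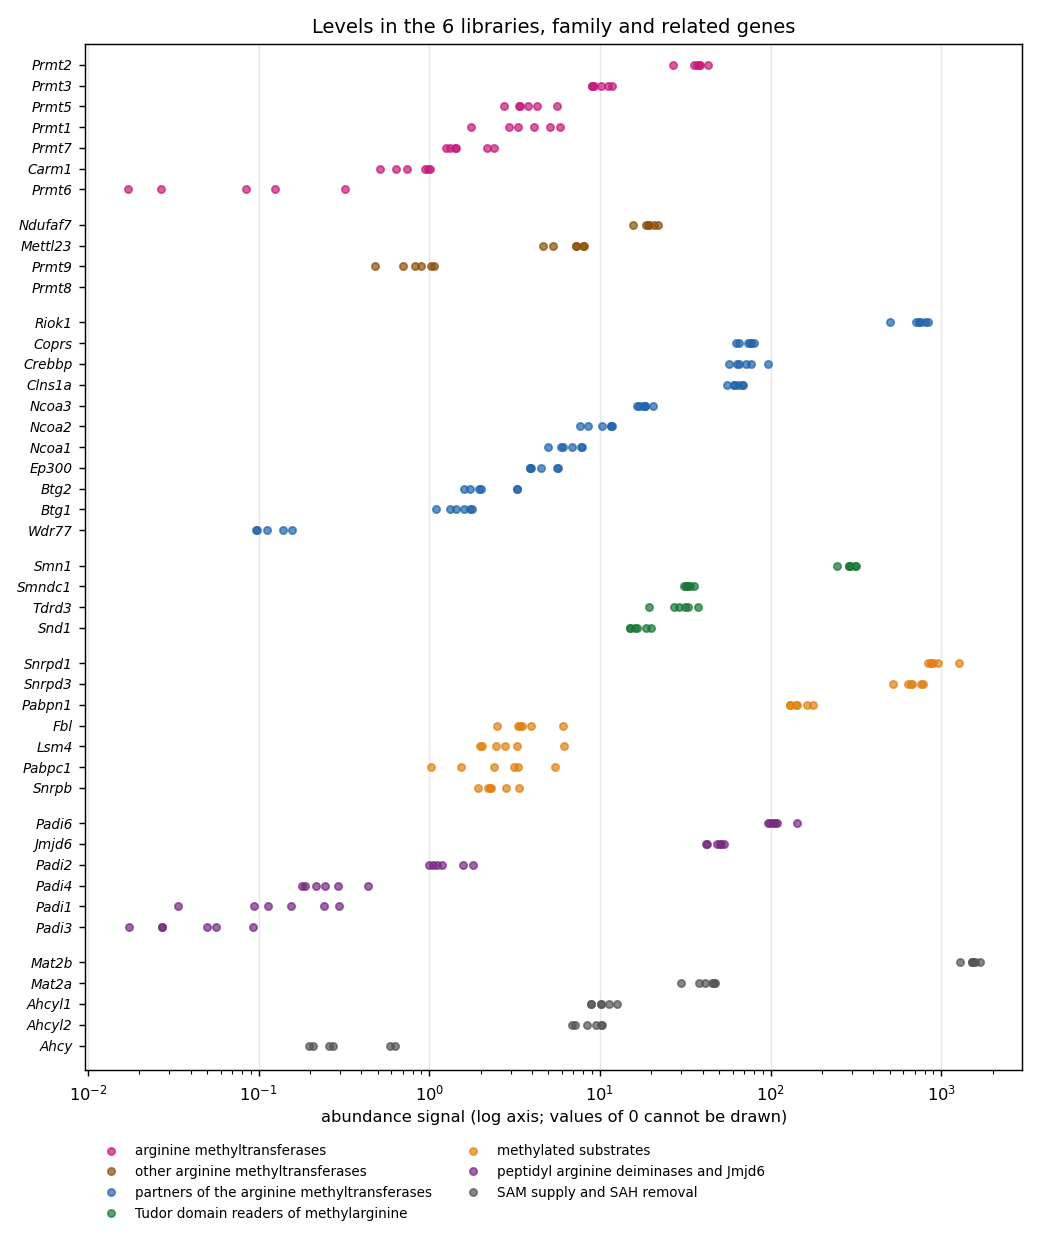
Abundance signal (horizontal log axis) of the 7 genes and the 37 related genes, 1 point per library, grouped by list and ordered by mean. Riok1, Clns1a and Coprs lie to the right of every arginine methyltransferase of the 7, and Wdr77 and Prmt6 lie near the left edge; values of 0, all those of Prmt8 among them, are not drawn.

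None of the 31 related genes passed in any comparison by limma. In CBR against DMSO embryos 19 had a positive and 12 a negative change, with a median of 0.05 and a range from -0.44 to 0.47. In CBR+SAM against CBR embryos the numbers were 12 and 19, with a median of -0.08, and in CBR+SAM against DMSO embryos they were also 12 and 19, with a median of -0.03. An unadjusted p under 0.05 was reached by Ahcyl2, a relative of Ahcy, at -0.44 in CBR against DMSO embryos. Lsm4, whose protein carries methylated arginine, reached it at -0.79 in CBR+SAM against DMSO embryos, where 2.14% of all genes did. Both had an adjusted p of 1 by limma. Without DMSO replicate 2, in which Lsm4 stood at 6.19 against 2.77 in DMSO replicate 1, its change was -0.33, and without DMSO replicate 1 it was -1.26.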

How the data were processed

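cDNA of the mouse 1-cell embryos came from the SMART-Seq v4 chemistry and was tagmented with Nextera XT, per the labels' protocols. Neither marks the strand of a read or tags molecules. The priming on poly(A) tails means that tail length can affect a level. The deposited values are an abundance signal per gene. Per the submitters' processing notes, fastp, kallisto and DESeq2 were used with the build mm10, without roles or versions. The values resemble TPM, but the columns sum to 956209 to 1059424, so a further scaling by the authors is possible, which the labels do not describe.

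GENCODE M21 (mm10) gave a symbol to 35768 of 36065 identifiers. Genes with a signal of at least 1 in at least 2 libraries, 12249 in all, entered a single limma (3.58.1, R 4.3.3) fit of log2(signal + 1) over the 3 groups. The variance followed a trend on the mean, 3 residual degrees of freedom remained, and two-sided p-values were Benjamini-Hochberg adjusted over all genes. Exact permutation of 2 against 2 libraries cannot go below p = 0.333 and was not used. The p-values measure only the spread between these libraries, which may be technical.

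Read depth is unknown from the table. Low values of genes annotated with 1 transcript, longer than 1500 bases, were compared with whole reads, and 79.6% to 82.0% lay within 0.1 of a whole number, against 20% for a fixed step by chance. The step was sought in a narrow range, so a lower depth cannot be told from it. A read in 1000 effective bases was worth 0.0399 to 0.0493, and read numbers here assume the longest transcript and are approximate. They are not independent molecules. As the values are not counts, no count test was run. Stretches of the longest transcript of each gene were sought in M21 transcripts of other genes with blastn 2.17.0.

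All members and every gene of the lists may be named, with the 3 genes of closest profile per member, of which 1 is not reported here. Members and lists were chosen with earlier results of these data known. Alternatives were another pseudocount (0.1), no filter, a mean of at least 10, 2 other scalings, a replicate block, only the 4 libraries compared, and each library left out.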

Additional observations from a re-analysis of the deposited data

How the results depend on the processing

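The 15 tested changes of the 7 genes had 12 or 13 alternatives each. Of 186 values 172 kept their sign, 14 had the other sign, and none was called. Many of the 172 could not differ from the main estimate, so this number overstates stability. A changed filter, the replicate block, the fit of only the 4 libraries compared and leaving out a library of the group not compared keep the estimate by construction. Prmt5 in CBR against DMSO ranged from 0.39 without CBR replicate 2 to 0.70 without CBR replicate 1. It was 0.673 with a pseudocount of 0.1, 0.516 with every library scaled to the same sum and 0.547 with scaling by the median ratio. With every library scaled to the same sum, the CBR against DMSO changes of Prmt1 and Prmt7 were -0.0216 and -0.0041, and that of Prmt3 in CBR+SAM against DMSO was -0.0291. With 1 library left out, CBR against DMSO changes ran from -0.39 to 0.42 for Prmt1, -0.18 to 0.11 for Prmt3, -0.25 to 0.30 for Prmt7 and -0.90 to 0.0276 for Lsm4. In CBR+SAM against CBR they ran from -0.0935 to 0.26 for Prmt3 and -0.54 to 0.0094 for Prmt7. In CBR+SAM against DMSO they ran from -0.43 to 0.0727 for Prmt2, -0.13 to 0.22 for Prmt3 and -0.21 to 0.0302 for Ahcyl2. The cause was not tested. Among related genes 71 of 1165 values changed sign and none was called. These 1165 values also include estimates that could not change.

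The number of genes called was 1 in CBR against DMSO with only the 4 libraries compared, and ran from 0 to 2 with 1 library left out. It ran from 0 to 8 in CBR+SAM against CBR and from 0 to 3 in CBR+SAM against DMSO with 1 library left out. In both it was 0 with a pseudocount of 0.1, without a filter and with a mean of at least 10. Each fit without 1 library assumes that the lone library left in that group varies like the other groups.

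The labels give replicate numbers but no shared day or batch. Replicate differences correlated across genes at 0.39 between CBR and DMSO, 0.22 between CBR+SAM and DMSO and 0.09 between CBR+SAM and CBR. All were positive, so a shared replicate effect is possible, and it was not tested. The main fit had no block because the labels name none. With a replicate block, unadjusted p-values under 0.05 by limma numbered 357 in CBR against DMSO (260 without it). They numbered 554 in CBR+SAM against CBR (378 without it) and 340 in CBR+SAM against DMSO (262 without it). With a replicate block the counts of called genes were 0, 1 and 1 as without it, no member was called, and Prmt5 in CBR against DMSO kept 0.55 (adjusted p = 1, limma). Carm1 and Prmt6 were too low to test.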
